A study of Rattus norvegicus with 6 samples.

Results

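Interleukins and ligands of the tumour necrosis factor (TNF) superfamily, with their receptors and antagonists, were examined in the L5 dorsal root ganglion (DRG) of the rat after spinal nerve transection (SNT). The genes were chosen by symbol. They were all genes whose probe sets carried a single symbol beginning with Il and a digit, the symbol Tnf itself, or a symbol beginning with Tnfsf or Tnfrsf, apart from Il6, its receptor genes and Il34. The rule found 86 of the 13378 genes measured, and 774 of the 226599 probe sets. Of the 86, 61 bore interleukin symbols and 25 bore TNF superfamily symbols. SNT ganglia came from male Wistar rats 7 days after the L5 spinal nerve had been cut, and naive ganglia came from unoperated male Wistar rats. Each group held 3 samples, each a pool of 4 animals (12 animals per group), and poly(A) RNA of every pool was hybridised to 1 Affymetrix Rat Exon array. Since naive animals had no surgery, the cut nerve and the operation cannot be told apart. No age was given in the sources used here.

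Interleukins are small secreted proteins by which leukocytes, glia and other cells signal to each other. They bind receptors built from 2 or more chains, many of which are shared between ligands. Receptors of the IL-1 family pass the signal through the adaptor MyD88 and IRAK kinases to NF-kB, whereas receptors of the IL-2, IL-4, IL-10 and IL-12 families use JAK kinases and STAT factors. TNF superfamily ligands are trimers, often shed from the cell surface, and their receptors recruit either death-domain adaptors or TRAF proteins. Soluble antagonists and decoy receptors that lack a signalling domain limit several of these pathways. In a DRG such signals can pass between sensory neurones, satellite glia, Schwann cells and resident or invading immune cells, and interleukin and TNF signalling is widely studied in neuropathic pain.

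The promoters of the pair of genes with the largest rises, Il24 and Tnfrsf12a, and of the gene with the largest fall, Il7r, are printed to show what lies beside their starts. Each runs from 250 bases before to 50 bases after the start in RefSeq, build GRCr8, read 5′ to 3′ on the gene's strand. All 3 genes lie on the minus strand, at chr13:44910711-44911010, chr10:13213599-13213898 and chr2:60204868-60205167. Capitals mark a match to the GAS motif, the letters bound by STAT factors (TTCNNNGAA, where N is any base), which began 152 bases before the start in Il24 and 136 bases before it in Tnfrsf12a. The Il7r window held none of the motifs searched.
Il24: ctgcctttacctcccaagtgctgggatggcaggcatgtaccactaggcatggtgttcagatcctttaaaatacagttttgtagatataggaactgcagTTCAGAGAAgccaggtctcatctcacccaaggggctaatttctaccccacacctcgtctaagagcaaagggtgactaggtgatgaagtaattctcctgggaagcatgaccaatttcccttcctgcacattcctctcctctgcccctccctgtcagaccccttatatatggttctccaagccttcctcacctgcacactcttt
Tnfrsf12a: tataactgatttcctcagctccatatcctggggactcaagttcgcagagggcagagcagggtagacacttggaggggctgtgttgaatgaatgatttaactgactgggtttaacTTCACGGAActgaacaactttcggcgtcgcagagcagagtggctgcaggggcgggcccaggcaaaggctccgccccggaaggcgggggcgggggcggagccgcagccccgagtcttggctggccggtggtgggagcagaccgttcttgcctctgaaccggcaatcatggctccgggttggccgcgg
Il7r: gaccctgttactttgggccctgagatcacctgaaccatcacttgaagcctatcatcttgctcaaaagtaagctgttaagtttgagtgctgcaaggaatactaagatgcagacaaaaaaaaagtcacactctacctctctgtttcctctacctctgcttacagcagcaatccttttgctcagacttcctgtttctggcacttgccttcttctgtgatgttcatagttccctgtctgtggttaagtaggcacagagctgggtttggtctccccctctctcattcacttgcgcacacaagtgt

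Promoters of 66 of the 86 genes were found among 33469 RefSeq promoters of the same length, and 4 motifs were searched on both strands. The GAS motif stood in 4 of the 66 and in 8.87% of all promoters. The AP-1 motif (TGANTCA) stood in 6 of the 66 and in 7.33% of all, the kB motif of NF-kB (GGNNTTTCC) in 8 and in 6.05%, and the cyclic AMP response element (TGACGTCA) in 1 and in 1.83%. Of 22 genes higher in SNT with a promoter, 3 held GAS (Il18r1, Tnfrsf12a and Il24), 3 held AP-1 (Il1a, Tnfrsf1b and Il18), 3 held kB (Il4r, Il1rn and Tnfrsf4) and 1 held the cyclic AMP element (Il21r). None of the 4 motifs was in the 4 promoters of genes lower in SNT. The letters of different motifs may overlap, and a match is a description of the sequence, not a bound site.

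Across probe sets, Pearson's r with the naive arrays was 0.955 to 0.960 for SNT 1, beside 0.938 to 0.947 for the other SNT arrays, so counts are also given without SNT 1. These r describe the arrays, since probe sets are not independent. The tissue label held: all 11 sensory neurone markers measured had mean levels above the dim level defined below, at mean log2 levels of 10.13 to 10.90 on the SNT arrays and 11.41 to 11.53 on the naive arrays, although 8 of them fell. Other cell types moved with the comparison. Of 13 macrophage markers measured 13 were higher in SNT (median log2 fold change 1.53), at mean levels of 8.75 to 9.84 in SNT and 7.41 to 7.92 in naive, with medians of 0.96, 2.11 and 1.57 on SNT 1, SNT 2 and SNT 3. Of 11 T and natural killer cell markers 7 were higher (median 0.56, mean levels of 6.30 to 6.91 in SNT and 5.54 to 5.62 in naive). Schwann cell markers (4 of 7 higher, 0 lower, median 0.51), fibroblast markers (3 of 4 higher, 0 lower, median 0.58) and satellite glia markers (2 of 7 higher, 3 lower, median -0.23) moved too, and 0 of 5 endothelial markers passed. Sox10, which was higher, was counted among both the Schwann cell and the satellite glia markers. Of 6 mast cell markers 1 was higher and 1 lower. The part of these cell types in the changes below was not tested. In whole ganglia, fewer cells of a type and less RNA per cell cannot be told apart.

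More of the interleukin and TNF superfamily genes were higher in SNT than lower. By limma at a false discovery rate (FDR) of 0.1, 25 of 86 were higher (29.1%, against 12.9% of all genes) and 5 were lower (5.81%, against 23.3% of all genes), and 56 did not pass. Their median log2 fold change was 0.20, beside -0.02 over all genes. In 35 genes (40.7%, against 16.8% of all genes) every SNT array lay above every naive array, and in 5 (5.81%, against 28.9%) every SNT array lay below. Set against the naive mean, the median gene stood 0.26 higher on array SNT 1, 0.17 on array SNT 2 and 0.15 on array SNT 3. Without SNT 1, 31 genes were higher and 7 lower, while over all genes the shares also went up, to 20.8% higher and 25.4% lower. Leaving out any 1 array gave 3244 to 6183 changed genes over all genes, against 4851 with all arrays, so a call lost in this way is given below with its change. The split depended on the scaling: median centring of every array gave 39 higher and 4 lower, while over all genes the split moved from 1731 higher and 3120 lower to 3074 and 2397 (23.0% and 17.9%). The median of the 86 genes was then 0.31 and that of all genes 0.09, beside 0.20 and -0.02 before centring.

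**Figure D1:**
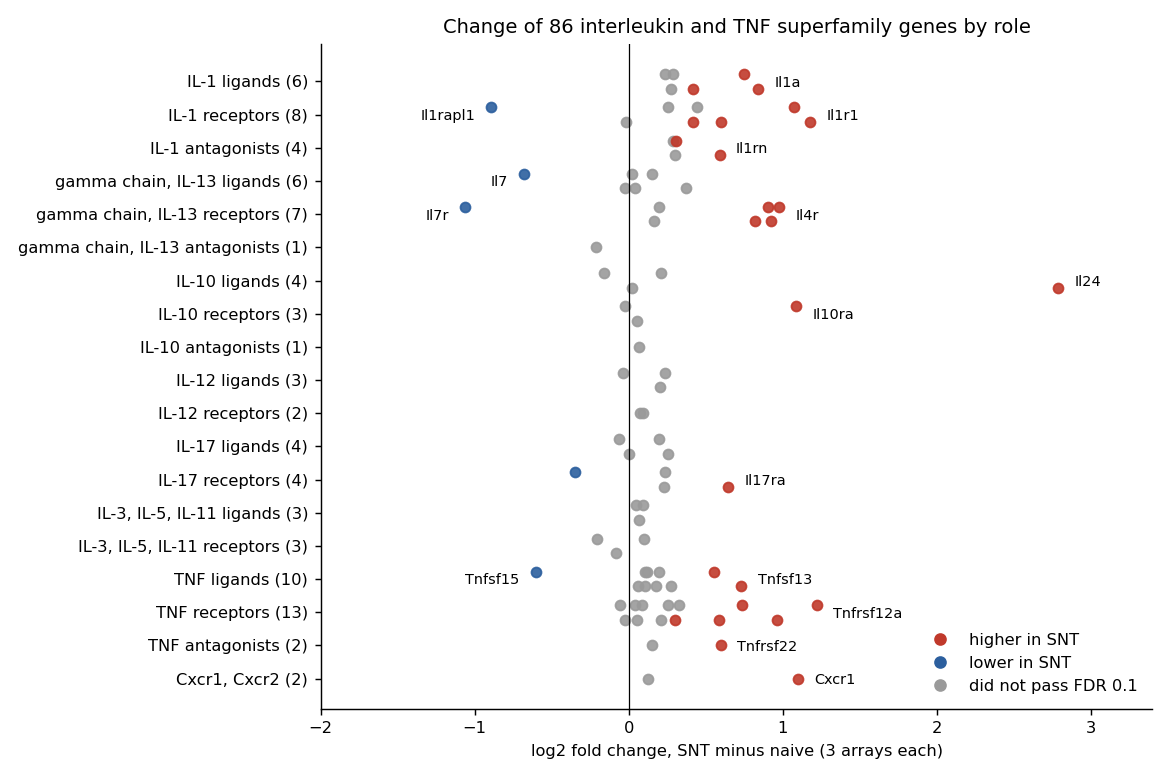
Log2 fold change (SNT minus naive, 3 arrays each) of all 86 genes, 1 point per gene, in rows by family and role with the number of genes in parentheses. Il24 stands furthest to the right at 2.79 and Il7r furthest to the left at -1.06. Red points were higher in SNT, blue points lower, and grey points did not pass FDR 0.1.

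Grouped by role, receptors and antagonists held most of the rises. Of 42 receptors other than decoys 16 were higher and 3 lower (median log2 fold change 0.23). Of 36 ligands 6 were higher and 2 lower (0.16), and of 8 antagonists and decoys 3 were higher and 0 lower (0.29). Over all genes 12.9% were higher and 23.3% lower, and ligands lay nearer to that share of rises than receptors did. The 42 included the chemokine receptors Cxcr1 and Cxcr2 and the receptor relatives Il1rapl1, Il1rapl2 and Il17rd. Their falls were Il7r, Il1rapl1 and Il17rd. Mean log2 levels on the naive arrays were 6.06 to 6.13 for the receptors, 5.36 to 5.39 for the ligands and 5.30 to 5.47 for the antagonists and decoys. Ligands, antagonists and decoys thus lay nearer than receptors to the dim level given below. Whether receptors and ligands differed, and the part of signal level in these counts, was not tested. Grouped by symbol, 17 of 61 interleukin genes were higher and 4 lower, and 8 of 25 TNF superfamily genes were higher and 1 lower. A dim level of log2 5.11, the 25th percentile of probe set means, was used because no detection calls were used here. In 28 genes the mean lay below it in both groups, and 4 of these were higher. In the other 58 genes 21 were higher and 5 lower. A rise or fall cannot be read as presence or absence of a transcript near that level.

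Il24, a ligand of the IL-20 subfamily within the IL-10 family, had the largest change of the 86. It stood at log2 7.24, 7.53 and 7.52 on the SNT arrays, against 4.43, 4.91 and 4.58 on the naive arrays. All SNT arrays were high and close to each other, with no overlap between groups. The rise was 6.91-fold, or 2.79 ± 0.15 on the log2 scale (SE, 3 arrays each, limma adjusted p = 0.000342). All naive arrays lay below the dim level of 5.11, so the fold rests on a naive level not shown to be above background, and the SNT mean stood 4.99-fold over the dim level itself. All 7 of its probe sets were higher, by 1.57 to 4.44, and the call passed under all 16 alternatives. Neither of its receptor chains measured here passed. Il20ra, which forms the IL-24 receptor with Il20rb, stood at 3.34, 3.38 and 3.33 in SNT and 3.31, 3.44 and 3.37 in naive (-0.02 ± 0.08, 95% interval -0.22 to 0.17, adjusted p = 0.868), below the dim level. Of its 11 probe sets 1 was lower, and with that most variable probe set alone Il20ra was at -0.95 (adjusted p = 0.10004). Il22ra1, the other chain that can bind IL-24, was at 0.05 ± 0.12 (adjusted p = 0.785). Il20rb was not among the genes measured here.

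The other ligands of the family that Il24 neighbours along the chromosome did not pass. In the GRCr8 gene order Il24, Il20, Il19 and Il10 follow each other with 0 other genes between them. Il20 was at -0.16 ± 0.17, Il19 at 0.21 ± 0.11 and Il10 at 0.02 ± 0.14 (adjusted p from 0.206 to 0.935). Il10, an anti-inflammatory cytokine, stood at 4.09, 4.09 and 3.62 in SNT and 3.88, 3.89 and 3.96 in naive, overlapping and below the dim level. Its ligand-binding receptor chain Il10ra stood at 6.70, 7.84 and 7.47 in SNT and 6.25, 6.07 and 6.44 in naive. SNT 1 was the lowest of the SNT arrays, yet above all naive arrays. The rise of Il10ra was 2.12-fold (1.09 ± 0.27, adjusted p = 0.0242), with 5 of 10 probe sets higher, and with the most variable probe set alone it did not pass (1.66, adjusted p = 0.150). Il22ra2, a soluble protein that binds IL-22, was at 0.07 ± 0.09 (adjusted p = 0.606).

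**Figure D2:**
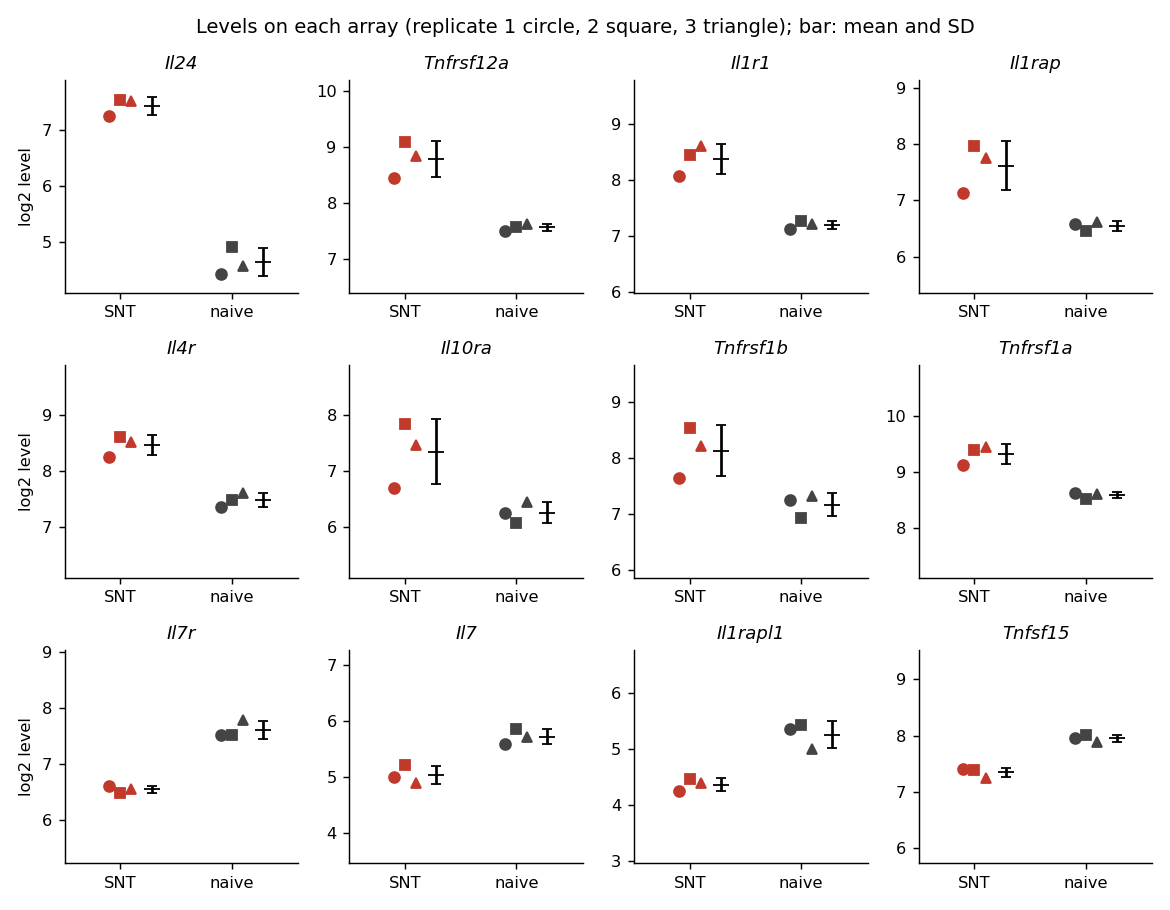
Log2 level of 12 genes on each array, SNT in red and naive in dark grey (circle replicate 1, square replicate 2, triangle replicate 3), with the mean and SD of each group as a bar. Every panel spans the same number of log2 units around its own midpoint, and in all 12 genes the SNT and naive arrays do not overlap.

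The IL-1 family had the most rises of any interleukin family, 9 of 18 genes, with 1 fall and a median log2 fold change of 0.36. Over all genes 12.9% were higher and 23.3% lower. It was also the largest interleukin family. The next, the common gamma chain and IL-13 group, held 14 genes, of which 4 were higher and 2 lower. The signalling receptor Il1r1 stood at 8.07, 8.44 and 8.61 in SNT and 7.12, 7.26 and 7.20 in naive, a 2.26-fold rise (1.18 ± 0.15, adjusted p = 0.0027) found in 11 of 14 probe sets. Il1rap, the accessory chain that the IL-1, IL-33 and IL-36 receptors share, stood at 7.13, 7.97 and 7.76 in SNT and 6.58, 6.45 and 6.62 in naive (1.07 ± 0.21, adjusted p = 0.0094). Both receptor chains were higher on every SNT array than on any naive array, and least so on SNT 1. Il1rl1, known as ST2 and the receptor of IL-33, stood at 6.78, 6.83 and 6.87 in SNT and 6.37, 5.86 and 6.47 in naive (0.60 ± 0.16, adjusted p = 0.0316). Its SNT arrays nearly coincided, and naive 2 lay lowest. The probe sets of Il1rl1 disagreed, from -0.20 to 1.75 with 5 of 17 higher. These 3 receptor genes passed under all 16 alternatives.

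Of 6 IL-1 family ligands 3 rose, and each of these calls was lost when certain single arrays were left out, with changes mostly close to those from all arrays. Il1a, an alarmin, stood at 4.42, 5.49 and 4.64 in SNT and 4.16, 3.95 and 3.92 in naive (0.84 ± 0.26, adjusted p = 0.0509). SNT 2 stood above the other SNT arrays, and without it the change was 0.52. The gene lay below the dim level on 5 of 6 arrays, and its call was lost without naive 2 (0.81, adjusted p = 0.137) or naive 3 (0.79, 0.136). Il1b, the pyrogenic ligand, stood at 5.83, 5.95 and 6.06 in SNT and 5.52, 5.70 and 5.37 in naive (0.42 ± 0.12, adjusted p = 0.035). The groups did not overlap, but its probe sets disagreed, from -0.56 to 1.05 with 2 of 8 higher. Without naive 1 (0.41, adjusted p = 0.115) or naive 3 (0.34, 0.123), without dim probe sets (0.28, 0.113) or with its most variable probe set (0.98, 0.202) it did not pass. Il18, which is processed by the inflammasome, stood at 4.08, 5.02 and 4.82 in SNT and 3.79, 4.04 and 3.83 in naive (0.75 ± 0.24, adjusted p = 0.052). SNT 1 lay just above the naive arrays, and the call of this dim gene was lost without SNT 2, SNT 3, naive 1 or naive 3 (changes of 0.56, 0.66, 0.70 and 0.72, adjusted p from 0.133 to 0.149). The alarmin Il33 was at 0.23 ± 0.22 (adjusted p = 0.481), with SNT 1 below 2 of the naive arrays.

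Of 4 antagonists in the family 2 rose. The receptor antagonist Il1rn stood at 5.73, 6.42 and 6.25 in SNT and 5.55, 5.45 and 5.63 in naive (0.59 ± 0.18, adjusted p = 0.0447). SNT 1 was the lowest of the SNT arrays, though above naive, and the call was lost without SNT 2, SNT 3, naive 1 or naive 2 (changes of 0.45, 0.53, 0.59 and 0.54, adjusted p from 0.113 to 0.139). The decoy receptor Il1r2, below the dim level in naive, rose by less (0.30 ± 0.11, adjusted p = 0.0736). Its call was lost without any 1 naive array (changes of 0.26 to 0.35, adjusted p from 0.125 to 0.241) and with its most variable probe set (1.20, 0.164). The call was also lost with the replicate block (adjusted p = 0.161) and at FDR 0.05, so Il1r2 passed in 10 of 16 alternatives. Il18r1, the ligand-binding chain of the IL-18 receptor, rose by 0.41 ± 0.11 (adjusted p = 0.0322) below the dim level, but the call was lost without naive 2 (0.31, adjusted p = 0.105), without dim probe sets (0.38, 0.105) or with its most variable probe set (0.83, 0.305). Its accessory chain Il18rap was at 0.44 ± 0.18 and the IL-18 antagonist Il18bp at 0.29 ± 0.11, neither past the threshold (adjusted p = 0.109 and 0.105). The remaining ligands Il36a and Il1f10, the antagonist Il36rn and the receptor genes Il1rl2 and Il1rapl2 lay between -0.02 and 0.30 and did not pass.

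The sole fall of the IL-1 family was Il1rapl1, a relative of the accessory chain known as a synaptic adhesion molecule of neurones. It stood at 4.24, 4.46 and 4.40 in SNT and 5.36, 5.42 and 4.99 in naive. All SNT arrays were low, below the dim level, and did not overlap with naive (-0.89 ± 0.14, 1.86-fold lower, adjusted p = 0.00449), and 6 of 12 probe sets were lower. The fall stood beside that of the sensory neurone markers (8 of 11 lower, median -0.93), whose part in it was not tested.

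Several IL-1 family genes lie next to each other. Il1r2, Il1r1, Il1rl2, Il1rl1, Il18r1 and Il18rap form a run of 6 receptor genes in GRCr8 with 1 other gene among them, and 4 of the 6 were higher and 0 lower. Of 9 pairs of neighbours among the 86 genes, 2 had both genes higher (Il1a with Il1b, and Il4r with Il21r), 3 had 1 higher (Tnfsf13 beside Tnfsf12, Tnfrsf1b beside Tnfrsf8, and Cxcr1 beside Cxcr2) and 4 had no gene changed. Of the run Il36a, Il36rn, Il1f10 and Il1rn 1 of 4 was higher, and of Il4, Il13 and Il5 0 of 3.

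**Figure D3:**
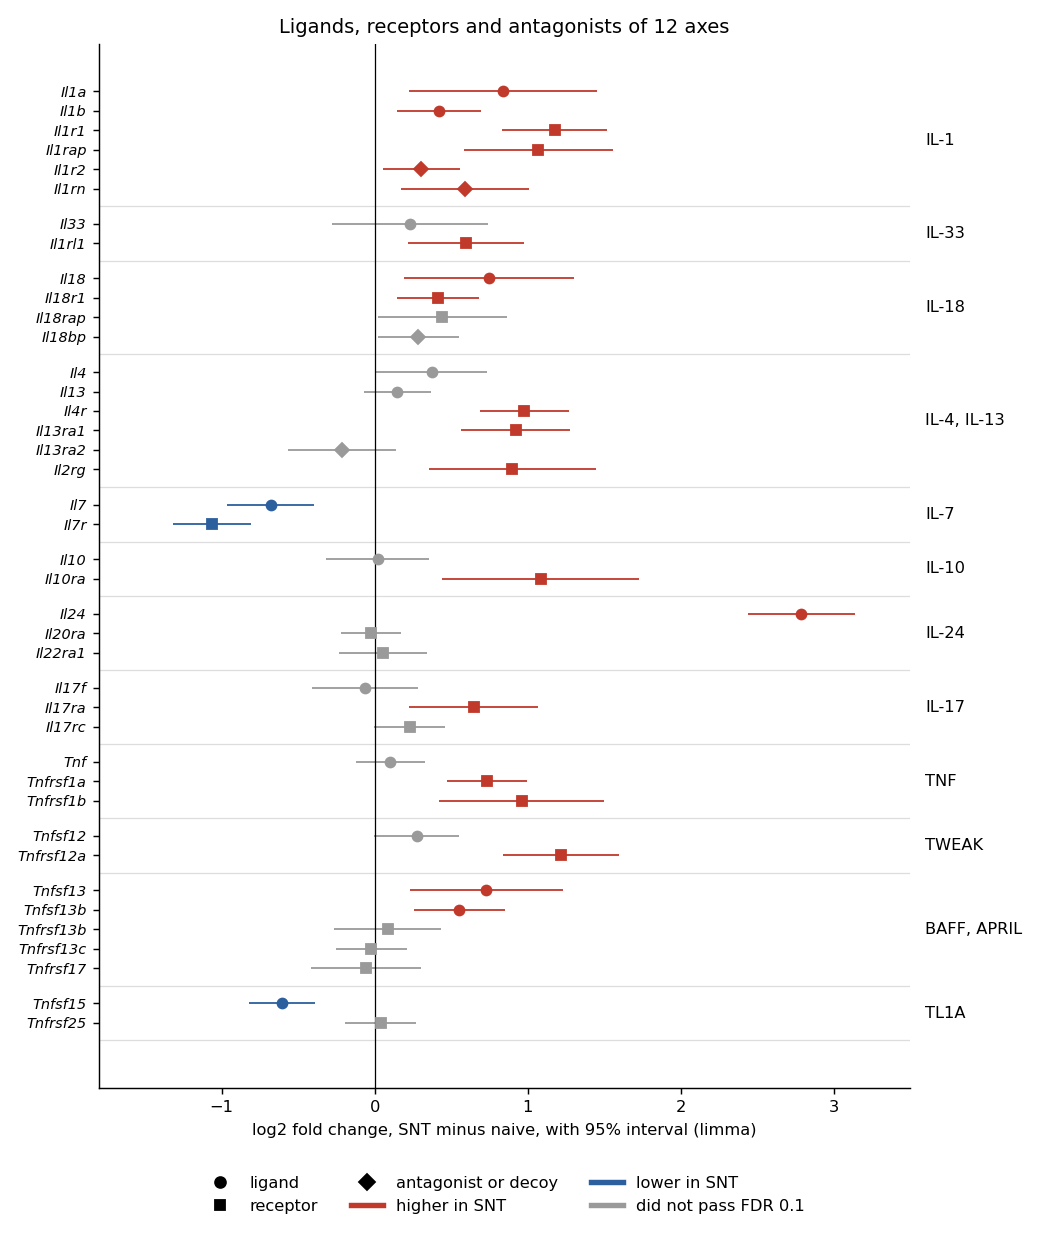
Log2 fold change (SNT minus naive) with the 95% interval of limma for the ligands (circles), receptors (squares) and antagonists or decoys (diamonds) of 12 signalling axes. The receptors Il1r1, Il4r, Il10ra, Tnfrsf1b and Tnfrsf12a lie near or above 1. Among ligands, Il24, Il1a, Il18, Tnfsf13, Tnfsf13b and Il1b were higher in SNT, and Il24 lies furthest right of all. The ligands Il33, Il13, Il10, Tnf and Tnfsf12 have grey intervals near 0. Il7, Il7r and Tnfsf15 lie left of 0 and were lower.

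Receptors of IL-4 and IL-13 rose while the ligands did not pass. Il4r, the alpha chain that both cytokines use, stood at 8.27, 8.61 and 8.53 in SNT and 7.36, 7.49 and 7.62 in naive (1.97-fold, 0.98 ± 0.12, adjusted p = 0.00284), with 16 of 18 probe sets higher. Its partner Il13ra1 stood at 9.76, 10.15 and 10.34 in SNT and 9.23, 9.11 and 9.14 in naive (0.92 ± 0.15, adjusted p = 0.00563), with 12 of 16 probe sets higher. Il2rg, the common gamma chain, stood at 6.64, 7.48 and 7.50 in SNT and 6.26, 6.20 and 6.46 in naive (0.90 ± 0.23, adjusted p = 0.0266). In all 3 receptor genes SNT 1 was the lowest SNT array and stayed above naive. Il13ra1 and Il2rg did not pass with their most variable probe set, although the changes were larger (1.29 and 1.01, adjusted p = 0.190 and 0.188). The ligand Il4 was at 0.37 ± 0.15 (adjusted p = 0.116) with overlapping groups below the dim level, and Il13 at 0.15 ± 0.09 (adjusted p = 0.288). Il13ra2, a decoy receptor for IL-13, was at -0.21 ± 0.15 (adjusted p = 0.345), although 2 of its 15 probe sets were lower.

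The IL-21 receptor rose and the IL-7 pair fell. Il21r, carried by lymphocytes, stood at 6.61, 7.29 and 6.96 in SNT and 6.16, 6.04 and 6.22 in naive without overlap (0.82 ± 0.17, adjusted p = 0.0122), while its ligand Il21 was dim and at 0.02 ± 0.15 (adjusted p = 0.929). Il7r, the alpha chain of the receptor for a lymphocyte survival factor, stood at 6.60, 6.48 and 6.56 in SNT and 7.51, 7.52 and 7.79 in naive. The SNT arrays lay close together and all below naive. Il7r was 2.09-fold lower (-1.06 ± 0.11, adjusted p = 0.00176), with 8 of 12 probe sets lower. The ligand Il7 stood at 4.99, 5.22 and 4.90 in SNT and 5.59, 5.86 and 5.70 in naive, again with no overlap and with an SNT mean below the dim level (-0.68 ± 0.12, adjusted p = 0.0071), and 3 of its 5 probe sets were lower. Ligand and receptor both passed under all 16 alternatives. T and natural killer cell markers went the other way (7 of 11 higher, 0 lower), and of 3 B cell markers 1 was higher and 1 lower. The remaining genes of the group, Il2, Il15, Il2ra and Il9r, lay between -0.02 and 0.20 and did not pass.

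Among IL-17 genes, the shared receptor chain rose and a divergent relative fell. Il17ra stood at 7.74, 8.37 and 8.32 in SNT and 7.47, 7.38 and 7.63 in naive (0.65 ± 0.18, adjusted p = 0.034). SNT 1 lay just above the highest naive array. Of its 13 probe sets 6 were higher, and 1 variable probe set at -0.75 gave the gene the opposite sign when it alone was used (adjusted p = 0.423). The call was also lost without SNT 3, naive 1 or naive 2 (changes of 0.56, 0.63 and 0.59, adjusted p from 0.101 to 0.116). Il17rd, known as Sef and as an inhibitor of fibroblast growth factor signalling, fell by 0.35 ± 0.11 (adjusted p = 0.057), with 3 of 16 probe sets lower by up to 1.77. It did not pass without SNT 2, naive 1 or naive 2 (changes of -0.36, -0.33 and -0.32, adjusted p from 0.113 to 0.183) or after median centring (-0.24, 0.113). Nor did it pass with the replicate block (adjusted p = 0.127) or at FDR 0.05, so Il17rd passed in 10 of 16 alternatives. The ligands Il17b, Il17c, Il17f and Il25 and the receptors Il17rc and Il17re lay between -0.06 and 0.25 and did not pass.

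No gene of the IL-12 group (Il12a, Il12b, Il23a, Il23r and Il27ra) passed, and the range was -0.04 to 0.24. The 6 genes of IL-3, IL-5 and IL-11 and their receptors (Il3, Il5, Il11, Il3ra, Il5ra and Il11ra1) lay between -0.21 and 0.10 and did not pass either. Of the 11 genes in both groups, 0 had an unadjusted limma p under 0.05, which does not show that they were unchanged. The chemokine receptors Cxcr1 and Cxcr2 came under the rule through their older symbols Il8ra and Il8rb. Cxcr1 rose by 1.10 ± 0.11 (adjusted p = 0.00176) on 1 probe set below the dim level, and Cxcr2 was at 0.12 ± 0.13 (adjusted p = 0.535). Of 7 neutrophil markers, with Cxcr2 itself among them, 1 was higher and 2 were lower.

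In the TNF superfamily, Tnfrsf12a had the largest change. This receptor of TWEAK, also named Fn14, is a small receptor induced in injured tissue. It stood at 8.45, 9.09 and 8.84 in SNT and 7.50, 7.58 and 7.63 in naive, without overlap and lowest on SNT 1. The rise was 2.33-fold (1.22 ± 0.16, adjusted p = 0.00319) and was found in 6 of 6 probe sets. Its ligand Tnfsf12 stood at 8.49, 8.88 and 8.76 in SNT and 8.48, 8.40 and 8.44 in naive. Those arrays did not overlap, but the change of 0.27 ± 0.12 did not pass (adjusted p = 0.133).

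Both TNF receptors rose, and the ligand Tnf did not pass. Tnfrsf1a, the death-domain receptor TNFR1, stood at 9.12, 9.39 and 9.44 in SNT and 8.62, 8.52 and 8.60 in naive (1.67-fold, 0.74 ± 0.11, adjusted p = 0.00438), with 10 of 16 probe sets higher. Tnfrsf1b, the TRAF-binding receptor TNFR2, stood at 7.64, 8.55 and 8.21 in SNT and 7.25, 6.94 and 7.32 in naive (0.96 ± 0.23, adjusted p = 0.0199), with 7 of 15 probe sets higher. For both, each SNT array was above each naive array and SNT 1 was the lowest of the SNT arrays. Tnf itself stood at 6.48, 6.61 and 6.57 in SNT and 6.46, 6.33 and 6.56 in naive, with overlapping groups (0.10 ± 0.10, 95% interval -0.12 to 0.33, adjusted p = 0.481). None of its 4 probe sets passed, and the adjusted p was 0.108 to 0.831 over the alternatives.

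Among the other ligands, the B cell survival factors rose and TL1A fell. Tnfsf13, known as APRIL, stood at 8.27, 9.01 and 8.40 in SNT and 7.90, 7.56 and 8.02 in naive (0.73 ± 0.21, adjusted p = 0.0404). SNT 2 was highest, the groups did not overlap, and the call was lost without naive 2 (0.60, adjusted p = 0.134) or with the most variable probe set (0.70, 0.350). Tnfsf13b, known as BAFF, stood at 6.21, 6.60 and 6.56 in SNT and 5.95, 5.81 and 5.95 in naive without overlap (0.55 ± 0.13, adjusted p = 0.0166) and passed under all 16 alternatives. Its probe sets disagreed, from -0.48 to 1.35 with 4 of 8 higher. The receptors of APRIL and BAFF, Tnfrsf13b, Tnfrsf13c and Tnfrsf17, lay at 0.08, -0.02 and -0.06 (adjusted p from 0.719 to 0.899). Tnfsf15, which encodes TL1A, stood at 7.40, 7.38 and 7.25 in SNT and 7.96, 8.0 and 7.88 in naive. Its groups were tight and apart (-0.60 ± 0.09, adjusted p = 0.00425), 3 of 6 probe sets were lower, and all 16 alternatives gave the fall. Its receptor Tnfrsf25 was at 0.04 ± 0.10 (adjusted p = 0.801).

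Of the remaining receptors and decoys, Tnfrsf22, a decoy receptor for TRAIL in the mouse, stood at 6.39, 6.80 and 6.71 in SNT and 5.92, 5.96 and 6.22 in naive. The arrays did not overlap (0.60 ± 0.14, adjusted p = 0.0191), and the rise passed under all 16 alternatives. The probe sets of Tnfrsf22 disagreed, from -0.48 to 1.63 with 3 of 6 higher. Tnfrsf14, known as HVEM, stood at 6.58, 7.33 and 7.07 in SNT and 6.35, 6.34 and 6.52 in naive (0.59 ± 0.19, adjusted p = 0.0547). SNT 1 lay nearest to naive but above it, and the call was lost without SNT 2, SNT 3, naive 1 or naive 2 (changes of 0.42, 0.55, 0.56 and 0.55, adjusted p from 0.127 to 0.153) and with the most variable probe set (1.15, 0.123). Tnfrsf4, known as OX40, rose by 0.30 ± 0.11 (adjusted p = 0.0834) with 0 of 9 probe sets higher on their own, and passed in 7 of 16 alternatives. It was lost without any 1 array except SNT 3 (changes of 0.25 to 0.35, adjusted p from 0.118 to 0.247). The death receptors Tnfrsf10b and Tnfrsf21 were at 0.33 ± 0.13 and 0.26 ± 0.11, both without overlap and short of the threshold (adjusted p = 0.108 and 0.141). The RANKL system did not pass: the ligand Tnfsf11 was at 0.12, its receptor Tnfrsf11a at 0.21 and the decoy Tnfrsf11b, osteoprotegerin, at 0.15 (adjusted p from 0.144 to 0.549). The ligands Tnfsf4, Tnfsf10, Tnfsf14 and Tnfsf18 and the receptor Tnfrsf8 lay between 0.05 and 0.20 and did not pass.

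A pair of genes lay outside the rule because the array annotation gives them provisional symbols. Tnfrsf19, known as TROY, stood at 7.35, 8.61 and 7.79 in SNT and 6.51, 6.49 and 6.39 in naive, without overlap (1.46 ± 0.29, adjusted p = 0.01). Il22 was at 0.26 ± 0.14 (adjusted p = 0.224). They entered no count above.

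Single probe sets, each about 1 exon, were also higher more often than lower. Of 774 probe sets 145 were higher (18.7%, against 5.16% of all probe sets) and 26 lower (3.36%, against 10.7%). These counts dropped to 83 higher without SNT 2, 54 higher and 11 lower without naive 1 or without naive 2, and 72 higher and 14 lower without naive 3. Changed genes over all genes dropped too, from 4851 to 4098 without SNT 2 and to 3244, 3322 and 3728 without naive 1, 2 and 3. The shares of all probe sets in these settings are not given here. With all arrays, the 145 and 26 probe sets came from 36 genes with a probe set higher and 7 with a probe set lower, and 0 genes had both. In 43 genes no probe set passed, and in 14 genes that did not pass as a whole 15 probe sets did. When each gene was represented by its most variable probe set, 15 of the 25 genes higher in SNT and 5 of the 5 lower kept their call. Over all genes the shares then dropped as well, from 12.9% to 5.4% higher and from 23.3% to 16.8% lower. That choice took extreme probe sets: Il24 was then at 4.44, Il18 at 1.93, Tnfrsf12a at 1.84, Il1rl1 at 1.75, Tnfrsf22 at 1.63, Il4r at 1.54, Il1a at 1.53, Il21r at 1.52, Tnfrsf1b at 1.45, Tnfsf13b at 1.35, Il1rn at 1.26, Il7r at -1.70, Tnfsf15 at -1.66, Il1rapl1 at -1.48 and Il7 at -1.33, each over 1.5 times the value from all probe sets.

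**Figure D4:**
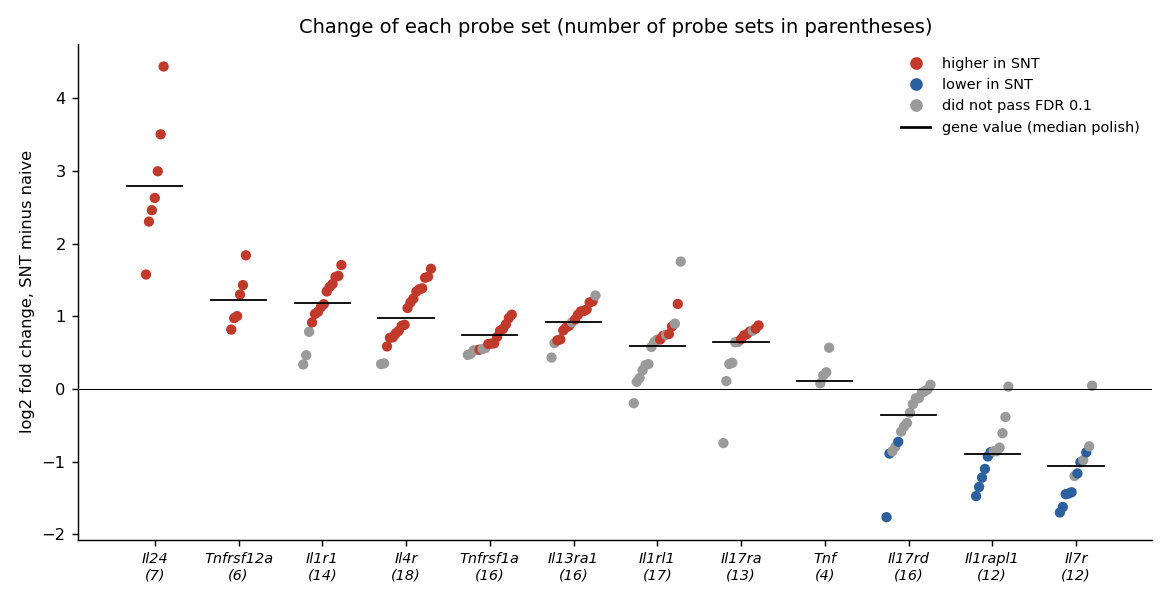
Log2 fold change (SNT minus naive) of every probe set of 12 genes, ordered by size within a gene, with the gene value as a black line and the number of probe sets in parentheses. All probe sets of Il24 and Tnfrsf12a are red (higher at FDR 0.1), those of Tnf are grey, and Il17ra has 1 grey point at -0.75 far below the rest.

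The size of the rises differed between the SNT arrays. Of the 25 genes higher in SNT, 16 were highest on SNT 2, 6 on SNT 3 and 3 on SNT 1, and 21 were lowest on SNT 1. Over all 1731 genes higher in SNT, 59.3% were highest on SNT 2 and 81.1% lowest on SNT 1, the order that the interleukin and TNF genes also had. The macrophage markers had the same order, with 13 of 13 highest on SNT 2 and 12 of 13 lowest on SNT 1. Il24 and Il1r1 rose by 2.60 and 0.88 on SNT 1, by 2.89 and 1.24 on SNT 2 and by 2.88 and 1.41 on SNT 3. Il10ra and Tnfrsf1b rose by 0.45 and 0.47 on SNT 1, by 1.59 and 1.38 on SNT 2 and by 1.22 and 1.04 on SNT 3. The 5 genes lower in SNT had no common order: SNT 1 was highest for 2 of them, SNT 2 for 2 and SNT 3 for 1. When SNT 1 was left out, Il18bp, Il18rap, Il33, Il36a, Il36rn, Tnfrsf11a and Tnfsf12 also passed upwards and Il11ra1 and Tnfrsf17 downwards, and Tnfrsf4 was lost.

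Genes that carry or shape these signals were taken from 5 lists, of which 74 of 99 genes were measured. Of these 31 were higher (41.9%) and 7 lower (9.46%), with a median log2 fold change of 0.33, beside 12.9% and 23.3% of all genes. Without SNT 1, 47 were higher, when 20.8% of all genes were. Without naive 2, 20 were higher, when 7.50% of all genes were. Without any 1 naive array 4 were lower, when 16.7% to 18.7% of all genes were. In the list of adaptors and kinases of IL-1 and TNF receptors 11 of 23 were higher and 3 lower. Ripk3, a kinase of necroptosis, was at 1.24 ± 0.25, Irak3, a brake on IL-1 signalling, at 1.14 ± 0.24, and the adaptor Myd88 at 0.79 ± 0.17 (adjusted p from 0.0109 to 0.0135). The falls were Irak1bp1, Traf3 and Birc2 (-0.52, -0.41 and -0.28).

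Of 9 NF-kB subunits and inhibitors 4 were higher and 1 lower. The subunit Rela was at 0.69 ± 0.12, the coactivator Bcl3 at 0.61 ± 0.11 and the subunit Nfkb2 at 0.53 ± 0.15 (adjusted p from 0.00617 to 0.0348), and the deubiquitinase Cyld, a brake on NF-kB, fell by 0.43. In the list of JAK, STAT and SOCS genes 8 of 18 were higher and 1 lower. Socs3, a feedback inhibitor of cytokine receptors, stood at 7.85, 8.56 and 8.53 in SNT and 5.25, 6.97 and 6.56 in naive (2.05 ± 0.43, adjusted p = 0.0122). It rested on 1 probe set, naive 1 lay far below the other naive arrays, and the groups did not overlap. Csf2rb, the beta chain that the IL-3 and IL-5 receptors share, was at 1.04 ± 0.17 and the phosphatase Ptpn6 at 0.98 ± 0.26 (adjusted p = 0.00499 and 0.0285), while the kinase Jak1 fell by 0.31.

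Genes that process or shed cytokines were higher in 5 of 9 cases and lower in 0. Adam17, the protease that sheds TNF and its receptors, was at 0.89 ± 0.19, its partner Rhbdf2 at 0.87 ± 0.13 and the inflammasome sensor Nlrp3 at 0.82 ± 0.20 (adjusted p from 0.00416 to 0.0205). Casp1, which cleaves the precursors of IL-1 beta and IL-18, was at 0.52 ± 0.30 with overlapping groups (adjusted p = 0.245). Among 15 TNF superfamily genes under other symbols 3 were higher and 2 lower. Eda2r, a receptor of ectodysplasin, was at 1.05 ± 0.25 and Cd27, a costimulatory receptor of T cells, at 0.62 ± 0.13 (adjusted p = 0.0205 and 0.0124), and the neurotrophin receptor Ngfr fell by 0.43 ± 0.09 (adjusted p = 0.0135).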

How the data were processed

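RNA of 6 pools of L5 DRG (3 SNT, 3 naive) was selected for poly(A) tails, biotin-labelled and measured on Affymetrix Rat Exon 1.0 ST arrays. The authors processed the scans in R with oligo and RMA (versions not given in the sources used here), and the deposited values are log2 expression per probe set after background correction, quantile normalisation and median polish, from 1.84 to 14.35. Quantile normalisation makes each change relative to the array as a whole. Samples were grouped by their labels, and 0 columns of per-sample values were left unmapped. Pools were separate animals, no scan dates or batches were named, and the number of arrays limits the precision.

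Probe sets were named through the platform annotation. A single symbol was given to 164162, several symbols to 2388 and none to 60049. Symbols of 25622 probe sets were updated through the GRCr8 gene table. Probe sets with a single symbol were combined per gene by Tukey median polish (at most 20 iterations) into 13378 genes with a median of 10 probe sets, 600 genes having 1. Il31ra was not measured because its probe sets carry more than 1 symbol. SNT and naive were compared with lmFit and eBayes of limma 3.58.1 (R 4.3.3), two-sided, with Benjamini-Hochberg adjustment over all genes, or over all probe sets, at FDR 0.1, the threshold of the study's methods. SE and 95% intervals are limma's, and ± in the report is SE.

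Genes were described by array where they passed with an absolute log2 fold change of at least 0.5 and 2 or more probe sets. So were, whatever their result, Tnf, Tnfrsf1a, Tnfrsf1b, Il1b, Il1r1, Il1rn, Il10, Il10ra, Il18, Il24, Il20ra and Tnfrsf12a. The 3 changed pathway genes with the largest change per list were named. Other genes were named after their values were seen. The genes, lists and tests were chosen with earlier results of these data known. In all 16 alternatives were run: FDR 0.05, limma-trend, robust eBayes, array weights, median centring, cyclic loess (3 iterations), the mean of probe sets, the most variable probe set, removal of probe sets under log2 5.11, a replicate block and each array left out, without resummarising the genes. The fit was tested on simulated data.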

Additional observations from a re-analysis of the deposited data

How the results depend on the processing

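Without 1 array at a time, 18 to 31 interleukin and TNF superfamily genes were higher and 4 to 7 lower, and their median change lay between 0.15 and 0.21. Over all genes 7.5% to 20.8% were then higher and 16.7% to 25.4% lower. Of the probe sets of the 86 genes 54 to 202 were higher and 11 to 28 lower. Of the pathway genes 20 to 47 were higher and 4 to 8 lower, and 3244 to 6183 genes changed in all. At FDR 0.05, 82 probe sets were higher and 16 lower. Median centring gave 39 genes higher, 17 probe sets lower and 4 pathway genes lower, when 23.0% of all genes were higher and 17.9% lower. Cyclic loess gave 33 genes higher and 5 lower, with 2380 higher (17.8%) and 2784 lower (20.8%) over all genes. With the most variable probe set 13 pathway genes were higher and 3 lower, when 5.4% of all genes were higher and 16.8% lower. In all 2970 genes changed, and the median was 0.37 for the 86 genes and -0.28 for all genes. Here the rule itself picks extreme probe sets. Deviations of same-numbered SNT and naive arrays from their group means were weakly correlated (r of -0.07, -0.22 and 0.06 for numbers 1, 2 and 3). With 3 arrays per group, such r cannot decide whether same-numbered pools were handled together. With the number as a replicate block 24 genes were higher and 4 lower, beside 10.8% and 19.6% of all genes, and 4 pathway genes were lower. Genes that did not pass changed sign in places: Il10 was at -0.069 with array weights and between -0.059 and 0.18 without 1 array, and Il20ra at 0.063 after median centring and between -0.054 and 0.0081 without 1 array, while its most variable probe set gave -0.95 (adjusted p = 0.10004). The most variable probe set turned the sign of Il17ra (-0.75). The cause of these differences was not tested. Il24, Tnfrsf12a, Il1r1, Il1rap, Il4r, Il21r, Tnfrsf1a, Tnfrsf1b, Tnfrsf22, Il1rl1, Tnfsf13b, Il7r, Il7, Il1rapl1 and Tnfsf15 passed in the same direction under all 16 alternatives. No scanner values or detection calls were used here, so signal over background is not known, and changes of dim genes are the least certain.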
